A study of Mus musculus with 9 samples.

Results

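Mouse mammary tumours grown as transplants, in which floxed Rb and p53 had been deleted either by an adenovirus carrying Cre or by Cre under the MMTV promoter, were compared for DNA copy number. The comparison takes the 2 tumours labelled Ad-CMVcre (Transplant) against the 5 labelled MMTV-Cre (Transplant), 7 of the 9 arrays in the series. The other 2 arrays, from nulliparous and parous MMTV-Cre females, were left out of every test except an alternative fit that uses all 9. The animals carried Rb f/f and p53 f/f alleles on a mixed strain background. Each array set tumour DNA (Cy5) against Cy3-labelled tail DNA pooled from animals of like mixed background that bore no tumour, and the study asked for changes that recur when Rb and p53 are lost together.

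Ad-Cre and MMTV-Cre models differ in how the recombinase reaches the cell. Ad-CMVcre is an adenovirus in which the CMV promoter drives Cre, so any infected cell can recombine, and the virus is not passed on to all daughter cells. The MMTV promoter is active in mammary epithelium, and also in some other tissues, from early in life. The labels call the same samples both primary tumours and transplants, and do not say whether transplants of one model share a donor, so the p-values measure the spread between these tumours only. Tumours are numbered within each model in the order of their records, and the numbers pair nothing.

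Rb1 restrains entry into S phase by binding E2F factors, and p53 (Trp53 in the mouse) stops or kills cells with damaged DNA. Cells that lack both proteins can keep dividing with broken or miscounted chromosomes, and array comparative genomic hybridisation reads the outcome as a ratio of tumour to reference DNA along each chromosome. A whole-chromosome shift, a step within a chromosome and a narrow high-level peak are its usual patterns, and normal cells mixed into a tumour pull each of them towards 0.

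The value used throughout is the log2 ratio of tumour to reference signal, centred on the median of the autosomal probes of its array. It is therefore a relative dosage: 0 is the typical autosomal level of that tumour, not a count of 2 copies. On the 7 arrays 914119 autosomal probes lay a median of 1782 bp apart, the median reference signal was 1068 to 1147, and the probe-to-probe noise was 0.158 to 0.183. The headers give 3 scan days. MMTV-Cre 1 and 2 were scanned on one day, MMTV-Cre 3, 4 and 5 on another, and both Ad-Cre tumours on the third, so scan day and Cre delivery cannot be told apart.

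The targeted gene was checked first. No probe carries a gene name in the files, and the place read here was chosen with its values in these data known: 4 probes at 69397121 to 69402566 of chromosome 11, the chromosome of Trp53. A scan for 4 neighbouring probes at least 0.5 below 20 probes on each side in 5 or more of the 7 tumours found 7 loci, 3 of them on chromosome 11, and this one does not stand out among them. Relative to their flanks the 4 probes kept 34.9% of the signal in Ad-Cre 1 and 59.8% in Ad-Cre 2. In the MMTV-Cre tumours 30.7%, 97.8%, 41.2%, 37.4% and 50.4% was left, in order of their number. By the rule of the scan the run was low in 5 of 7 tumours, not in Ad-Cre 2 or MMTV-Cre 2. Its mean was barely below the flanks in the second MMTV-Cre tumour, which is called the library labelled MMTV-Cre 2 below because of it. The groups overlapped (Ad-Cre 47.4 ± 17.6%, SD, n = 2, MMTV-Cre 51.5 ± 26.8%, n = 5, two-sided exact permutation p = 0.905). Without the library labelled MMTV-Cre 2 the difference changed sign, from -4.10 to 7.47 percentage points.

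With 2 tumours against 5 there are 21 groupings, and the smallest p an exact test can give is 0.0476. Every statement on groups below is limited by the 2 Ad-Cre tumours.

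Window by window, no place in the genome was shown to differ between the models. The autosomes were divided into 23354 windows of 100 kb with at least 3 probes each (median 42). limma, a moderated linear model fitted over all windows, called 0 of them at a Benjamini-Hochberg adjusted p under 0.05, a percent called of 0. The lowest adjusted p was 0.935, and 639 windows (2.74%) had an unadjusted p under 0.05. Of those 639 windows, 606 were lower in the Ad-Cre tumours and 33 higher. Most lay on chromosomes 3 (364 windows) and 7 (234 windows). The median standard error of a window difference was 0.107 on the log2 scale. Leaving out Ad-Cre 1 ended the count of 0: the same fit then called 8 windows, all higher in Ad-Cre 2 and all on chromosome 6, described below.

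A second reading asked only whether the groups overlap. Both Ad-Cre tumours lay below all 5 MMTV-Cre tumours in 1613 windows, 6.91% of those tested, and above all 5 in 511 windows, 2.19%. Were the labels set at random, each of the 21 groupings would be equally likely. A share of 0.0476 of the windows would then be expected to separate in each direction. The lower share was above that level and the higher share below it. Taken over both directions, windows without overlap were no more frequent than random labels would give on average. The lower windows were held by a few chromosomes: 916 on chromosome 12, 382 on chromosome 3 and 300 on chromosome 7, leaving 15 elsewhere. The 511 higher windows lay mostly on chromosomes 13 (186), 18 (133) and 9 (109). The gap between the nearest tumours of the 2 groups was small. Its median was -0.06 for the lower windows and 0.01 for the higher ones, against probe noise of 0.158 to 0.183 and a median of 42 probes a window. A gap of 0.1 or more separated the groups in 270 of the lower and 3 of the higher windows, and a gap of 0.25 in none. These windows were found by their lack of overlap in this same contrast and carry no test.

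**Figure D1:**
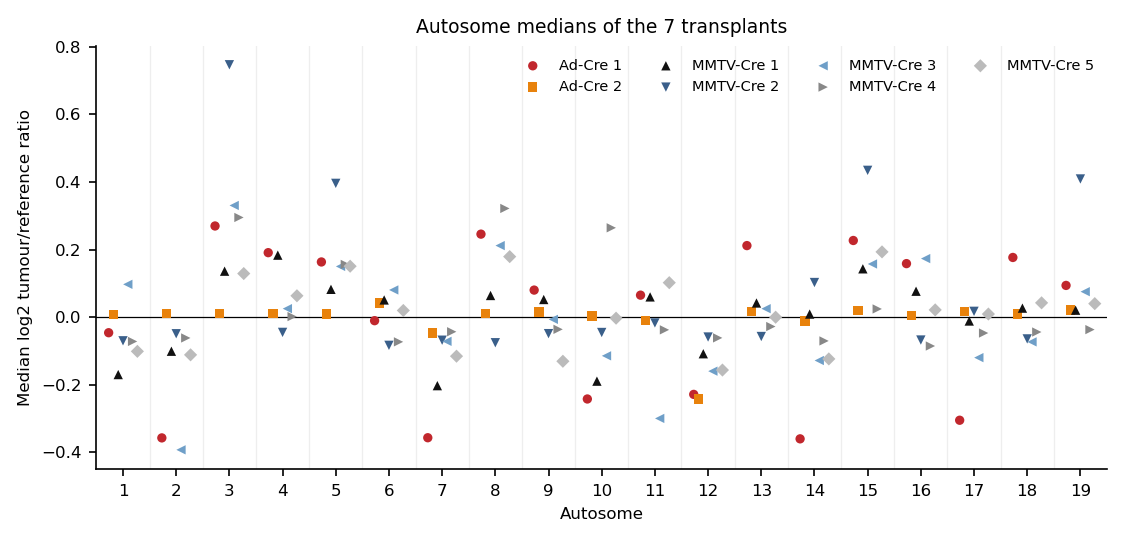
Median log2 tumour to reference ratio (vertical axis) of every autosome (horizontal axis) in each of the 7 transplants, 1 symbol per tumour. Chromosome 12 is the one autosome on which both Ad-Cre tumours, at -0.23 and -0.24, lie below all 5 MMTV-Cre tumours, and Ad-Cre 2 stays within 0.05 of 0 on the other 18.

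Chromosome 12 was the one autosome of 19 whose medians did not overlap between the models. Its median was -0.23 in Ad-Cre 1 and -0.24 in Ad-Cre 2. In MMTV-Cre 1 to 5 it was -0.11, -0.06, -0.16, -0.06 and -0.16. All 7 tumours were below 0, and the Ad-Cre pair lay lowest (difference -0.13, means -0.23 ± 0.01, SD, n = 2, and -0.11 ± 0.05, n = 5). The two-sided exact permutation p was 0.0476, and 0.840 after Benjamini-Hochberg adjustment over the 19 autosomes, which is no longer past 0.05. Random labels would separate a share of 0.0476 of the autosomes in each direction on average. A lone autosome without overlap among 19 is therefore no more than such labels would give. Of the genes listed for this report chromosome 12 holds Mycn, a member of the Myc family of growth regulators.

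The low dosage ran along nearly the whole of chromosome 12 and was not a local event. The windows without overlap made up 83.5% of the chromosome and formed 6 of the 10 longest lower runs of the genome. The longest of these went from 75900001 to 94300000 (coordinates as the files give them, build not named there). Its means were -0.23 and -0.25 in the Ad-Cre tumours and -0.13, -0.07, -0.17, -0.09 and -0.16 in MMTV-Cre 1 to 5. The run from 3100001 to 17900000 read -0.24 and -0.24 against -0.11, -0.08, -0.17, -0.09 and -0.17. Both Ad-Cre values lie below the lowest MMTV-Cre value in each run, which is that of MMTV-Cre 3. Within its own array chromosome 12 was the lowest of 19 autosomes in Ad-Cre 2 and the sixth lowest in Ad-Cre 1, whose chromosomes 14, 2, 7, 17 and 10 were lower still. In MMTV-Cre 1 to 5 its rank from the lowest was 4, 7, 3, 6 and 1, so this rank does not set the models apart.

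The centring of Ad-Cre 1 bears on this result and on all others that include it. Centring each array on the mode of its window values, in place of the median, moves Ad-Cre 1 down by 0.17 and the other 6 tumours by at most 0.08 either way. On that scale chromosome 12 read -0.40 and -0.23 in the Ad-Cre tumours and -0.14, 0.01, -0.23, 0.02 and -0.11 in the MMTV-Cre tumours. The groups still did not overlap, but Ad-Cre 2 and MMTV-Cre 3 then differed by less than 0.01, and the exact permutation p was 0.0952. Chromosomes 3, 5 and 15 also had no overlap on that scale, each lower in the Ad-Cre tumours, and the windows without overlap numbered 3172 lower and 97 higher.

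No other autosome separated the models. The lowest differences, of chromosome 3 at -0.19 and chromosome 14 at -0.14 (the retinoblastoma gene Rb1 lies on it), were below that of chromosome 12, but the groups overlapped. Chromosome 3 was at -0.08 without the library labelled MMTV-Cre 2 and at -0.06 without Ad-Cre 2. On chromosome 14 Ad-Cre 1 was at -0.36 and Ad-Cre 2 at -0.01, beside 0.01, 0.10, -0.13, -0.07 and -0.12 in the MMTV-Cre tumours, so the difference came from Ad-Cre 1 and changed sign without it, to 0.03. The highest differences were 0.12 for chromosome 13, 0.12 for chromosome 18 and 0.08 for chromosome 9. On chromosome 13, which holds E2f3, Ad-Cre 1 was at 0.21 and Ad-Cre 2 at 0.02, and the MMTV-Cre tumours ran from -0.06 to 0.04. On chromosome 18 the Ad-Cre values were 0.18 and 0.01 against -0.07 to 0.04, and on chromosome 9 0.08 and 0.02 against -0.13 to 0.05. The adjusted exact permutation p was 0.840 for each of these 5 autosomes. Without Ad-Cre 1 the differences of chromosomes 13, 18 and 9 were 0.02, 0.03 and 0.05. Under mode centring those of chromosomes 13 and 18 were both 0.02, and that of chromosome 9 turned to -0.02.

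The longest stretch without overlap lay on chromosome 3 and came from a loss in 1 Ad-Cre tumour inside a chromosome on which all 5 MMTV-Cre tumours were above 0. Over 100600001 to 135300000, 34.7 Mb and 13485 probes, the median was -0.36 in Ad-Cre 1 and 0.01 in Ad-Cre 2. In MMTV-Cre 1 to 5 it was 0.13, 0.76, 0.33, 0.31 and 0.13. All 5 MMTV-Cre tumours were above 0 here, Ad-Cre 2 was at its typical level, and Ad-Cre 1 was below it. The run of 342 windows was chosen for this order and has no test.

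In Ad-Cre 1 the part of chromosome 3 before this interval was higher, in steps, and 49.1% of the chromosome was at 0.25 or above. From 3000029 to 74265825 the median was 0.64, close to the 0.73 of the library labelled MMTV-Cre 2 and above the 0.01 of Ad-Cre 2 and the 0.14, 0.33, 0.27 and 0.12 of MMTV-Cre 1, 3, 4 and 5. Its segments then read 0.09 to 0.31 as far as 98568521, apart from a dip of 20 probes to -0.37, fell to -0.38 at 98575059, rose to 0.54 for 90 probes at 100421313 to 100648946, and stayed at -0.33 and -0.38 until 135303872. Beyond it the level was 0.21 as far as 154619859, then -0.41 over 120 probes and 0.15 after them. The interval minus the proximal part was -1.005 in Ad-Cre 1. In Ad-Cre 2 and in MMTV-Cre 1 to 5 the same difference within the array was 0.00, -0.02, 0.02, 0.01, 0.05 and 0.01. This contrast does not depend on the centring. The proximal limits were taken from the segments of Ad-Cre 1, and the interval from a run in which it was lowest. That Ad-Cre 1 stands apart was thus set by the choice and has no test. The listed genes on chromosome 3 are Pik3ca (a lipid kinase subunit), Sox2, Mcl1 (an inhibitor of cell death) and Nras, and which of them lie in the interval was not read because the build of the probe positions is not named.

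**Figure D2:**
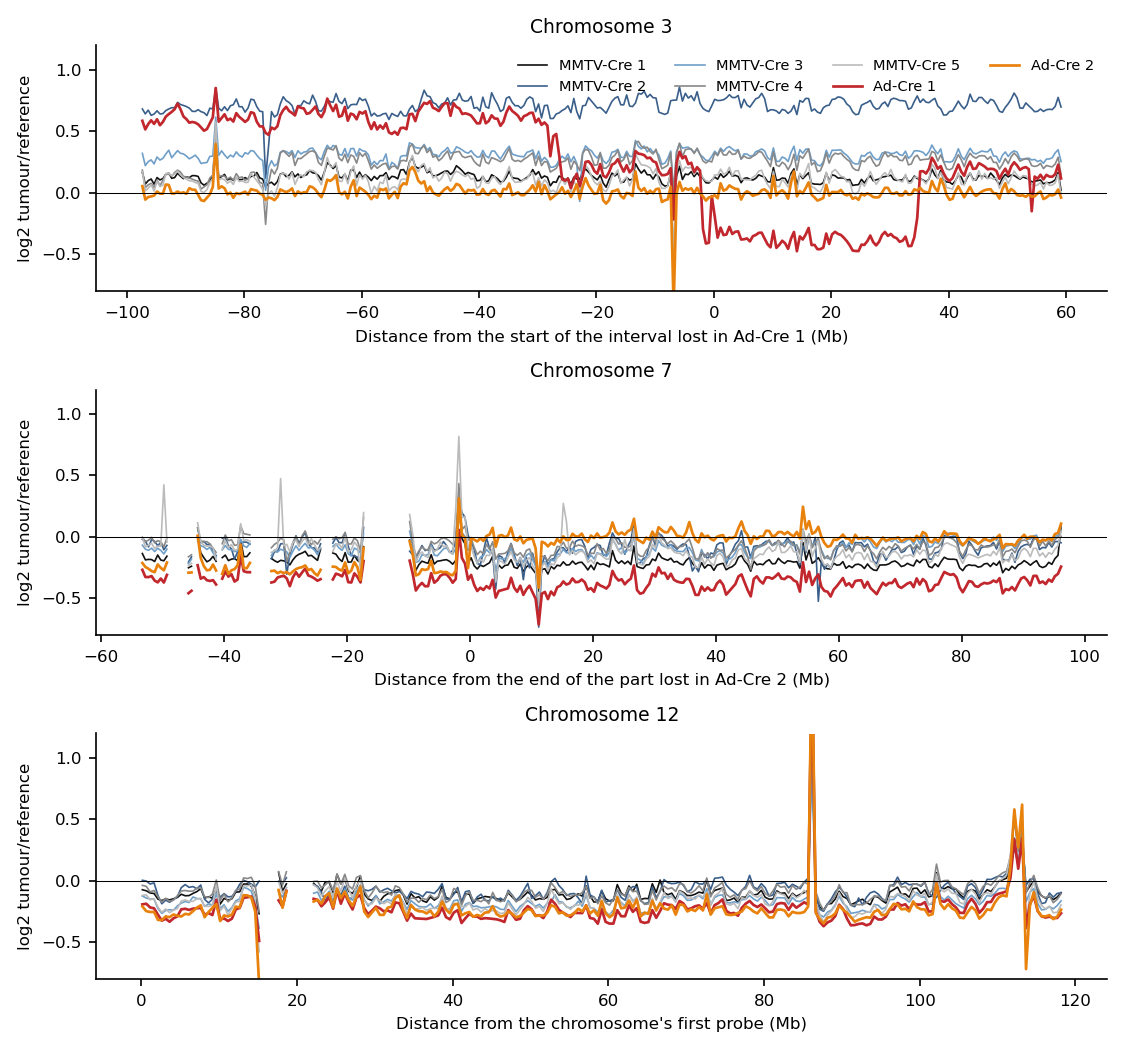
Log2 ratio in 500 kb windows (vertical axis, values outside -0.8 to 1.2 not shown) along chromosomes 3, 7 and 12, with distance in Mb from the interval lost in Ad-Cre 1, from the end of the part lost in Ad-Cre 2, and from the first probe. On chromosome 3 Ad-Cre 1 falls in steps from about the level of the highest MMTV-Cre tumour, through segments mostly at 0.09 to 0.31, to -0.36. On chromosome 7 Ad-Cre 2 steps from -0.26 to 0.01.

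On chromosome 7 both Ad-Cre tumours were low in the proximal part, and they parted at a step. From 3129114 to 56573474, 53.4 Mb and 13454 probes, the median was -0.32 in Ad-Cre 1 and -0.26 in Ad-Cre 2. In the MMTV-Cre tumours it was -0.17, -0.05, -0.09, 0.00 and -0.06. Both Ad-Cre tumours lay below all 5. The part was taken from the low segments of Ad-Cre 2 after the values were seen, and this order has no test. Over the remaining 95.9 Mb Ad-Cre 1 stayed at -0.37 while Ad-Cre 2 rose to 0.01, above all 5 MMTV-Cre tumours at -0.21, -0.07, -0.06, -0.05 and -0.13.

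The 2 parts of chromosome 7 were cut at the step of Ad-Cre 2 itself, so its contrast was set by that choice and has no test. The proximal part minus the rest was -0.27 in Ad-Cre 2, 0.05 in Ad-Cre 1 and 0.04, 0.03, -0.03, 0.05 and 0.08 in MMTV-Cre 1 to 5. In Ad-Cre 1 and MMTV-Cre 1 the whole chromosome was low, so the 2 Ad-Cre tumours reach a like proximal level by a whole-chromosome shift in one and a partial one in the other. Chromosome 7 holds 6 of the listed genes: Ccne1 and Ccnd1 (cyclins of the G1 phase, which act on the Rb protein), Hras, Igf1r and Fgfr2 (growth signalling), and Palb2 (DNA repair with Brca2).

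Ad-Cre 1 was the tumour of the 7 with the most chromosomes gained or lost over 50% or more of their length. Its autosome medians ran from -0.36 (chromosome 14) to 0.27 (chromosome 3), 2 of 19 lay within 0.05 of 0, 8 were at 0.1 or above and 6 at -0.1 or below. At the threshold of 0.25 it had lost that share of chromosomes 2, 7, 10, 14 and 17, and gained it of chromosome 8. Chromosomes 2 (99.7%), 7 (99.96%) and 14 (99.8%) were lost nearly throughout. At that threshold no MMTV-Cre transplant lost that share of chromosome 7, 10, 14 or 17. Chromosomes 7 and 10 of MMTV-Cre 1 had medians of -0.20 and -0.19, low but short of it. MMTV-Cre 3 lost all of chromosome 2 (median -0.39, against -0.36 in Ad-Cre 1) and the larger part of chromosome 11, and the other 4 MMTV-Cre transplants lost 50% of no chromosome. These shares, the chromosome 8 gain of Ad-Cre 1 among them, were read with median centring only. Mode centring moves Ad-Cre 1 down by 0.17.

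Ad-Cre 2 was the flattest tumour at the scale of chromosomes. 18 of its 19 autosome medians lay within 0.05 of 0, against 3 to 9 in the MMTV-Cre transplants. It gained or lost 50% of no chromosome at the threshold of 0.25. Its chromosome 12, at -0.24, fell just short of that threshold, so 3.55% of the chromosome counts as lost there. The corresponding share of chromosome 12 in Ad-Cre 1, at -0.23, was 40.03%, since 3 of its long segments lay beyond the threshold, at -0.27, -0.30 and -0.25.

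Chromosome 6 held more steps of Ad-Cre 2 than any other chromosome, 30 of its 119 breakpoints (a step of 0.2 or more between neighbouring segments), and the highest amplification of either Ad-Cre tumour. From 17332410 to 17682146, 165 probes, the mean was 4.61, which is 24.5 times the reference after centring. The median over the same probes was 0.12 in Ad-Cre 1 and 0.26, -0.01, 0.17, -0.03 and 0.15 in MMTV-Cre 1 to 5. With normexp background correction the median of Ad-Cre 2 over these probes was 5.76, so the fold depends on how background is removed. Reference signal there was 0.940 of its autosomal median, unlike the loci of weak reference signal described below.

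The amplified segment opened abruptly and closed in a staircase. The 14.1 Mb before it read -0.04. After it came 1.86, 0.79 and 1.60 in 3 short segments up to 18003972, then 0.59 over 3.22 Mb. A second peak followed at 21233642 to 21677879, in which 2 segments at 1.63 and 1.60 enclosed 80 probes at 0.12. The next 19.3 Mb were at 0.20. At the 2 peaks taken whole the median of Ad-Cre 2 was 1.92 and 1.51, and none of the other 6 tumours exceeded 0.22.

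Further along chromosome 6 the level of Ad-Cre 2 went up and down between 2 values. From 42886633 the segments read 0.56, -0.36, 0.58, -0.31, 0.51, -0.31, 0.49 and -0.29 in turn until 47597937, after which the level was -0.01 for 20.4 Mb. The 4 raised segments lay between 0.49 and 0.58 and the 4 lowered ones between -0.29 and -0.36. Over the same 8 segments the median of Ad-Cre 1 was between -0.19 and -0.01, and those of the 5 MMTV-Cre transplants were between -0.25 and 0.10, with no such alternation. Among the listed genes on chromosome 6 are Met (a receptor tyrosine kinase for hepatocyte growth factor), Braf (signalling below such receptors), Ccnd2 and Cdkn1b (a cyclin and a cyclin-dependent kinase inhibitor). The files do not say which of them, if any, lies in an amplified segment.

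**Figure D3:**
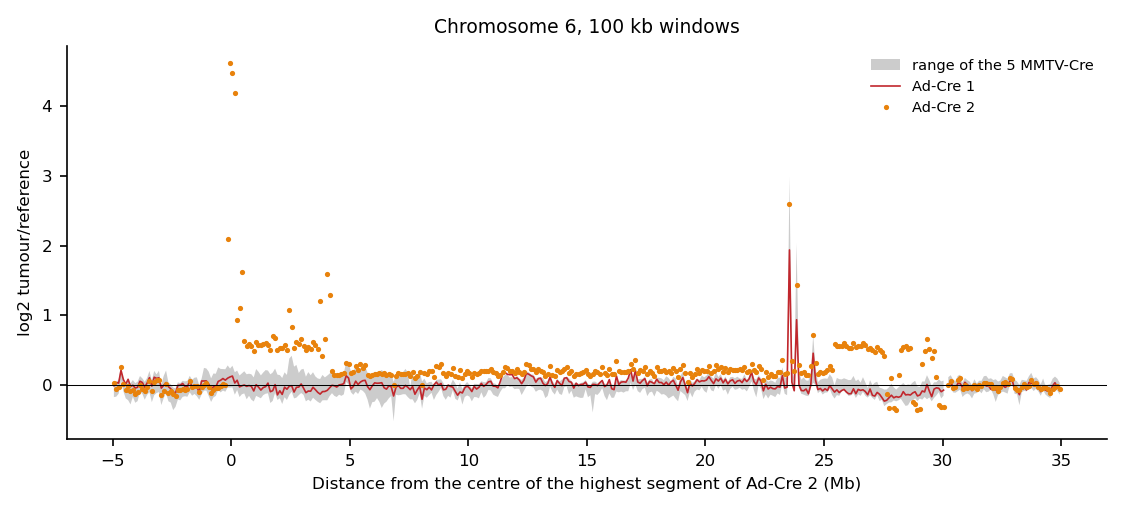
Log2 ratio in 100 kb windows of chromosome 6 (vertical axis) against distance from the centre of the highest segment of Ad-Cre 2 (Mb). Points are Ad-Cre 2, the line Ad-Cre 1 and the grey band the range of the 5 MMTV-Cre transplants. Ad-Cre 2 rises to 4.61 and 1.60, stays raised, and alternates between about 0.5 and -0.3 before it returns to 0. Ad-Cre 1 stays within or near the band.

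A set of 7 measures per tumour summarised the extent of change, and none separated the models. The altered share of autosomal length (segments at 0.25 or beyond) was 38.1% in Ad-Cre 1 and 2.71% in Ad-Cre 2. In MMTV-Cre 1 to 5 it was 5.48%, 21.6%, 19.01%, 16.3% and 2.62%. The 2 Ad-Cre tumours thus lay at the top and next to the bottom of the 7 (means 20.4 ± 25.02%, SD, n = 2, and 13.0 ± 8.45%, n = 5, two-sided exact permutation p = 0.476). With normexp the values were 62.2% and 8.43% against 10.6%, 23.7%, 30.6%, 20.3% and 11.3%, a difference of 16.0 percentage points, and Ad-Cre 2 was the lowest.

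Losses gave the lowest p of the 7 measures. The lost share was 29.0% in Ad-Cre 1 and 2.18% in Ad-Cre 2, beside 1.26%, 1.11%, 11.5%, 1.12% and 0.152% in MMTV-Cre 1 to 5. MMTV-Cre 3 lies between the Ad-Cre tumours, and the difference of 12.6 percentage points had an exact permutation p of 0.0952 (0.667 adjusted over the 7). Without Ad-Cre 1 it was -0.85. The gained share was 9.11% and 0.524% in the Ad-Cre tumours and 4.22%, 20.5%, 7.51%, 15.1% and 2.47% in the MMTV-Cre tumours (exact permutation p = 0.429). With normexp the gained share of Ad-Cre 1 was 32.7%, the highest of the 7. At the lower threshold of 0.15, which takes in chromosome 12 of Ad-Cre 2, the lost share of Ad-Cre 2 was 7.08% and the MMTV-Cre transplants reached 3.82% to 21.4%.

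Breakpoints numbered 83 in Ad-Cre 1 and 119 in Ad-Cre 2, and 125, 69, 78, 99 and 90 in MMTV-Cre 1 to 5 (difference 8.80, exact permutation p = 0.714). The order of the Ad-Cre tumours depended on the background correction: with normexp the counts were 52 and 39. Without segments that lie in loci shared by 4 or more tumours, an alternative chosen after the data were seen, the counts were 47 and 70 against 90, 52, 46, 63 and 51, and the difference was -1.90.

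The chromosome fullest in breakpoints differed between the 2 Ad-Cre tumours. In Ad-Cre 1 it was chromosome 4 (17 breakpoints) followed by chromosome 3 (12), then 6, 11 and 12 with 7 each. Without the shared loci chromosome 3 led in Ad-Cre 1 with 12 of 47. In Ad-Cre 2 it was chromosome 6 (30), followed by 4 (15) and 12 (12), and without the shared loci chromosome 6 kept 21 of 70 while chromosome 4 had none. The fullest in MMTV-Cre 1 to 5 were chromosomes 8 (60), 7 (12), 11 (29), 4 (46) and 7 (21).

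The standard deviation of the window values, which needs no segments, put the Ad-Cre tumours at both ends: 0.271 in Ad-Cre 1 was the highest and 0.144 in Ad-Cre 2 the lowest of the 7. The MMTV-Cre values were 0.204, 0.265, 0.224, 0.188 and 0.206 (exact permutation p = 0.905). With normexp the library labelled MMTV-Cre 2, at 0.340, was above Ad-Cre 1 at 0.332. Probe noise was 0.163 and 0.171 in the Ad-Cre tumours, within the range of the MMTV-Cre arrays.

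**Figure D4:**
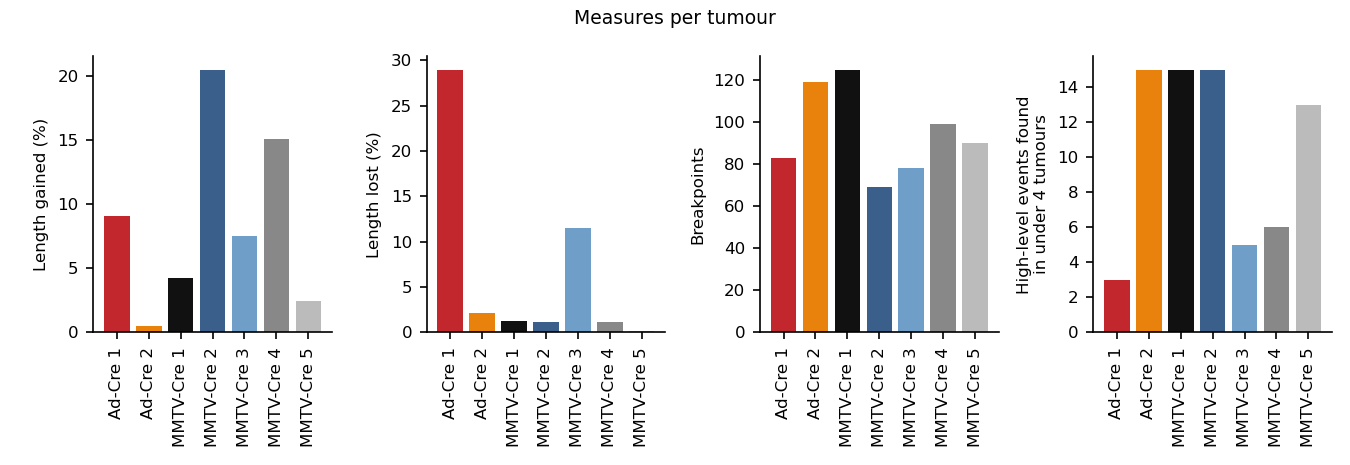
Bars give, for each of the 7 tumours, the share of autosomal length gained and lost at 0.25 (percent), the number of breakpoints and the number of high-level events found in fewer than 4 tumours. Ad-Cre 1 has the most length lost (29.0%) and Ad-Cre 2 the least gained (0.524%), with 83 and 119 breakpoints.

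High-level events were counted last. They are segments at 1 or beyond in size and up to 10 Mb long, joined where they lay within 1 Mb of each other. There were 12 gains and 2 losses in Ad-Cre 1, and 23 gains and 2 losses in Ad-Cre 2. Gains in MMTV-Cre 1 to 5 numbered 21, 9, 12, 15 and 21, and losses 2, 11, 2, 2 and 2. Neither gains (exact permutation p = 0.667) nor losses (exact permutation p = 1) differed beyond the spread. The 11 losses are those of the library labelled MMTV-Cre 2, and 10 of them occurred in fewer than 4 tumours. These counts depend on the processing in both models. With normexp the Ad-Cre tumours had 3 and 4 gains and MMTV-Cre 1 to 5 had 11, 2, 3, 1 and 5. The library labelled MMTV-Cre 2 then had 2 losses. With no spot filter the Ad-Cre tumours had 51 and 60 gains and MMTV-Cre 1 to 5 had 60, 25, 57, 55 and 64.

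Most events of Ad-Cre 1 were shared. Of its 14 events 11 overlapped, by at least 25% of the longer one, events of the same sign in 4 or more of the 7 tumours, and none of the other 3 reached 300 kb. In Ad-Cre 2 the shared events numbered 10 of 25, and of the 15 others 3 reached 300 kb, all on chromosome 6. They were the 2 peaks above and a short locus at 41013611 to 41422577, which by the 25% rule matched events in 3 tumours. Its first 10 probes, at 41013611 to 41068800, were raised in all 7 tumours, so this locus is not private to Ad-Cre 2. Their medians were 2.33 and 2.29 in the Ad-Cre tumours and 1.71, 3.75, 2.38, 2.48 and 2.98 in MMTV-Cre 1 to 5. Reference signal there was 0.011 of its autosomal median. By the 25% rule MMTV-Cre 1 had 8 events of at least 300 kb matched in no other tumour, all on chromosome 8, and MMTV-Cre 3 had 1 on chromosome 11. MMTV-Cre 5 had 2, of which the higher, at 6484696 to 9192736 of chromosome 9, had a mean of 3.46.

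The shared gains lay where the reference signal was weak, and so did some gains found in fewer than 4 tumours. At 111744282 to 113590732 of chromosome 4, the longest of Ad-Cre 1, the reference signal of the high probes was 0.024 of its autosomal median. The median there was 1.11 in Ad-Cre 1, 1.55 in Ad-Cre 2 and 1.02, 0.87, 1.02 and 1.51 in MMTV-Cre 1, 3, 4 and 5, but -0.15 in the library labelled MMTV-Cre 2. At the locus 115299143 to 116295289 of chromosome 12 the ratio of reference signal was 0.029. At the 2 peaks of chromosome 6 private to Ad-Cre 2 it was 0.979 and 0.944. At the 3 gains of Ad-Cre 1 found in fewer than 4 tumours it was 0.460, 0.202 and 0.098. Over all such gains of Ad-Cre 2 it ran from 0.0135 to 1.69. The part of weak reference signal in the gains, shared or not, was not tested. The shared losses of the Ad-Cre tumours lay where it was strong: on chromosome 2 from 77706709 in Ad-Cre 1 (13.9 times the autosomal median) and on chromosome 7 from 38963847 in Ad-Cre 1 and 38962620 in Ad-Cre 2 (8.07 times in both).

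Pairs of tumours were compared last, as a description. Ad-Cre 1 and Ad-Cre 2 differed by 0.25 or more in 32.7% of windows. Among the 10 pairs of MMTV-Cre transplants that share ran from 5.72% to 36.2% with a median of 21.7%, and 2 of the 10 pairs, both with the library labelled MMTV-Cre 2, exceeded the Ad-Cre pair. Between models it ran from 2.53% (Ad-Cre 2 with MMTV-Cre 5) to 43.3% (Ad-Cre 1 with the library labelled MMTV-Cre 2), with a median of 20.4%. By this share each Ad-Cre tumour was nearer to an MMTV-Cre tumour than to the other Ad-Cre tumour: Ad-Cre 1 to MMTV-Cre 3 (16.9%) and Ad-Cre 2 to MMTV-Cre 5. By the median absolute difference over windows Ad-Cre 1 was nearest to MMTV-Cre 1 (0.118, against 0.135 for MMTV-Cre 3 and 0.172 for Ad-Cre 2). Ad-Cre 2 was again nearest to MMTV-Cre 5 (0.093). Pairs were compared with median centring only.

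**Figure D5:**
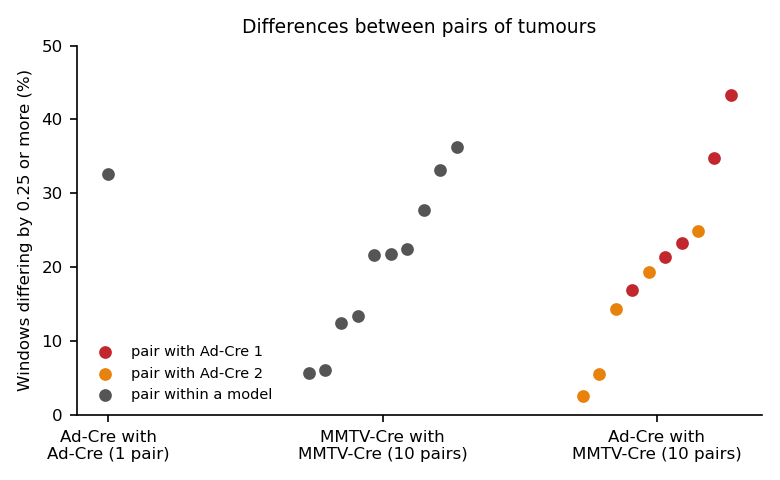
Share of 100 kb windows whose log2 ratio differs by 0.25 or more (percent, vertical axis) for the 21 pairs of tumours, by kind of pair. The single Ad-Cre pair lies at 32.7%, above 8 of the 10 MMTV-Cre pairs and above 8 of the 10 pairs between models.

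The list of 47 genes of growth signalling, the cell cycle, p53, Myc, cell survival and DNA repair could be placed by chromosome only, and all 47 were matched, on 17 of the 19 autosomes. The one listed gene on an autosome without overlap is Mycn. On the autosome of Myc, Pvt1 and Skp2, chromosome 15, the Ad-Cre medians were 0.23 and 0.02 and the MMTV-Cre medians 0.14, 0.43, 0.16, 0.02 and 0.19, which overlap. On chromosome 11, with Egfr, Erbb2, Nf1, Brca1 and Trp53, they were 0.07 and -0.01 against 0.06, -0.02, -0.30, -0.04 and 0.10. An autosome median says nothing of a narrow change at one of its genes.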

How the data were processed

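The 7 arrays are Agilent 2-colour genome arrays read with Feature Extraction 10.5.1.1, per the file headers. The authors deposited scanner files with background-subtracted, dye-normalised processed signal intensity per channel and a log10 ratio per spot, and a series table whose log10 values differ from the scanner ratios by at most 0.005. A genome build is not given in the sources used here, and a RefSeq table (GRCm38.p6) with other positions served only to place genes on chromosomes. From the deposited intensity, log2 of red over green was computed, control spots and 1597 to 2115 flagged or dim spots per array were left out, repeated probes were averaged, and the median over the autosomal probes was subtracted from each array. Windows of 100 kb took the mean of at least 3 probes. Segments came from penalised change-point detection (PELT) on medians of 5 probes (penalty 10 times the natural log of the number of bins, at least 2 bins). Groups were compared with limma 3.58.1 (R 4.3.3) over windows and with two-sided exact permutation tests, adjusted by Benjamini-Hochberg over 19 autosomes and over 7 measures. Scripts were tested on simulated data. Named places are the 10 longest runs of non-overlapping windows each way, autosomes without overlap or with the 3 highest and 3 lowest differences, high-level events of an Ad-Cre tumour of at least 300 kb, and the 3 chromosomes fullest in breakpoints. Members, lists and tests were chosen with earlier results of these data known. The number of arrays limits the precision. Some listed genes are not reported here.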

Additional observations from a re-analysis of the deposited data

Results flagged for a closer look

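Dixon's test was applied within the 5 MMTV-Cre transplants to the autosome medians, the 7 measures, the chromosome 11 run and the regions described above, 34 groups of values in all. A group of 5 is flagged by chance about 1 time in 20, and the 2 Ad-Cre tumours are too few for it. Chromosome 2 of MMTV-Cre 3 stood apart at -0.39, with the other 4 between -0.11 and -0.05. The share lost in MMTV-Cre 3 stood apart at 11.5%, with the others between 0.152% and 1.26%. The library labelled MMTV-Cre 2 stood apart on chromosome 5 (0.40, the others between 0.08 and 0.16), on chromosome 19 (0.41, the others between -0.04 and 0.08) and in its 11 high-level losses, against 2 in each of the others. With normexp background correction that library had 2 high-level losses and the other 4 had 1 or 2.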

How the results depend on the processing

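Of 303 comparisons of a result with its value under an alternative, 246 kept direction and side of the threshold or, for a count, stayed within 1.5 times. For the regions, which have no p, a shift in size with the direction kept could also count as a change. An example is the highest segment of chromosome 6, whose difference went from 2.263 to 2.825 with normexp. In 15 of 16 alternative limma fits 0 windows were called, including scan day as a random block (923 windows at unadjusted p under 0.05) and all 9 arrays in the fit. No scan day held transplants of both models, so the fit with scan day as a block cannot separate day from model. Its block correlation was -0.204. Leaving out each tumour in turn gave 0 to 8 called windows (8 without Ad-Cre 1), 547 to 4013 higher and 1648 to 5848 lower windows without overlap, and 1 to 9 autosomes without overlap, with chromosome 12 among them each time. The lone Ad-Cre tumour is then assumed to vary like the others, and fewer tumours leave more windows without overlap by construction. Leaving out a tumour cannot create an overlap, so chromosome 12 had to stay among the autosomes without one. The higher windows numbered 4013 without Ad-Cre 1, 3963 without Ad-Cre 2, 2054 without MMTV-Cre 1 and 1403 without MMTV-Cre 3, and the lower windows 4466 without Ad-Cre 1 and 5848 without Ad-Cre 2.

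Centring on the mode gave 97 higher and 3172 lower windows and 4 autosomes without overlap, a chromosome 9 difference of -0.016 and a difference of -0.089 for the proximal part of chromosome 3. Normexp correction turned the gained share to 0.857 percentage points, breakpoints to -3.70 and high-level gains to -0.90. A penalty factor of 20 turned breakpoints to -0.60, and leaving out shared loci to -1.90 (chosen after seeing the data). A threshold of 0.4 turned the altered share to -0.944. The cause of these changes was not tested.

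Leaving out each tumour moved the altered share difference between -10.3 and 25.1 percentage points, the lost share between -0.846 and 25.95, breakpoints between -9.20 and 26.8, high-level gains between -3.60 and 7.40, high-level losses between -2.25 and 0, the window SD between -0.0738 and 0.0531, and the signal left on chromosome 11 between -16.6 and 8.34 points. The lowest and highest values came from leaving out one or the other Ad-Cre tumour, except for high-level losses, where 0 came without the library labelled MMTV-Cre 2. The same ranges were -0.32 to 0.030 for chromosome 14, -0.31 to 0.32 for the proximal part of chromosome 3, -0.26 to 0.12 for the distal part of chromosome 7 and -0.30 to 0.015 for its proximal part minus the rest. Chromosome 12 passed an exact p of 0.05 with no tumour left out only, since 6 and 15 groupings cannot reach it. No paired analysis was possible because the tumour numbers follow the order of the records and pair nothing. The 2 Ad-Cre tumours, the signal over background of 14.9 to 29.7 times and the single scan day of the Ad-Cre arrays limit what can be seen.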
